A study of Mus musculus with 6 samples.

Results

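The Ms4a genes examined here are 8 neighbours on mouse chromosome 19, Ms4a4a, Ms4a4b, Ms4a4c, Ms4a4d, Ms4a6b, Ms4a6c, Ms4a6d and Ms4a7. They were chosen by gene name from the 55357 genes of an RNA-seq table, which lists 13 further Ms4a genes. Ms4a genes encode small proteins that cross the membrane several times and sit at the cell surface or on internal membranes, where several of them act beside other receptors. The best known relatives are Ms4a1, which encodes the B cell antigen CD20, and Ms4a2, which encodes the beta chain of the IgE receptor of mast cells. In the brain, the Ms4a4, Ms4a6 and Ms4a7 genes are known mainly from microglia and macrophages, and Ms4a7 is widely used to mark macrophages at the borders of the brain. Variants in the human MS4A cluster are associated with the risk of Alzheimer disease and with the level of soluble TREM2, a receptor of microglia.

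The study asked how BRAF K499E (BRAF KE), an activated form of the kinase BRAF found in RASopathies, changes gene expression in astrocytes. Astrocytes were grown from the cortex of C57BL/6 embryos at embryonic day 18, and dishes were shaken for 6 hours after 7 days. In 3 cultures (KE), the astrocytes were transfected with BRAF KE, and RNA was taken at 48 hours. For immunostained astrocytes the paper names a plasmid with FLAG-tagged BRAF KE under the CMV promoter, which is active in most cell types. The same construct was assumed for the RNA. The other 3 cultures (NT) were nontransfected astrocytes of the same kind. Controls given an empty plasmid or BRAF WT were not analysed here, so effects of BRAF KE and of transfection itself cannot be told apart. The labels do not say whether the 3 cultures of a group came from different animals, so the p-values measure the spread between these cultures, which may be technical.

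The labels were checked on Braf, whose normalized count was 36979 ± 3464 (SD, n = 3) in KE and 894 ± 73.1 in NT. The sum over 10 astrocyte markers was 150288 to 152751 in KE and 109516 to 114729 in NT, most of it from Slc1a3, Gfap, Aldh1l1 and Slc1a2. The cultures also held RNA of microglia and macrophages. The sum over 16 markers of these cells was 6953 to 9675 in KE and 61254 to 76952 in NT, and 16 of 16 were lower in KE. In bulk RNA, fewer cells of a type and less RNA per cell cannot be told apart. The depth was approximately 24500000 to 34100000 reads per culture, lowest in KE replicate 2.

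The 8 genes fall into related groups, and the similarity of their sequences bears on how reads are divided among them. The Ms4a cluster spans chr19:10939657-11618215 (GRCm39) and holds 21 Ms4a genes. In chromosome order the 8 are Ms4a7 (chr19:11298403-11313510, minus strand), Ms4a4a (chr19:11352823-11370154, plus), Ms4a4c (chr19:11382131-11404610, plus), Ms4a4b (chr19:11412557-11444419, plus), Ms4a6c (chr19:11446718-11462204, plus), Ms4a6b (chr19:11493876-11508620, plus), Ms4a4d (chr19:11514134-11537905, plus) and Ms4a6d (chr19:11563968-11582213, minus). The coding sequences of Ms4a4b and Ms4a4c were 91.7% identical, those of Ms4a4c and Ms4a4d 87.9%, and those of Ms4a4b and Ms4a4d 85.9%. Among the Ms4a6 genes, identity was 86.3% for Ms4a6b and Ms4a6c, 81.8% for Ms4a6b and Ms4a6d, and 79.8% for Ms4a6c and Ms4a6d. Ms4a4a was at most 70.1% and Ms4a7 at most 68.9% identical to any of the other 7. The first 60 coding bases of the close relatives, from Gencode, show how near these genes are to each other, and capitals mark the positions at which members of a group differ.
Ms4a4b: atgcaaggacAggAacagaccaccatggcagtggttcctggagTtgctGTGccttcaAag
Ms4a4c: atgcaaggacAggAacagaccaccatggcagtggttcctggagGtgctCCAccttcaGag
Ms4a4d: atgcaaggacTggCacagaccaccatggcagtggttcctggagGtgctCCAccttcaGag
Ms4a6b: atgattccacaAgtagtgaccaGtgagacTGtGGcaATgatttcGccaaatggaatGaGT
Ms4a6c: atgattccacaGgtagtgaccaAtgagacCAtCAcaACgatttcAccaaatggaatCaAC
Ms4a6d: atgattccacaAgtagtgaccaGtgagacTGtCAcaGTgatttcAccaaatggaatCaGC
The 3 Ms4a4 sequences differed at 7 of the 60 positions and the 3 Ms4a6 sequences at 12. Over whole transcripts, 15.34% of the 31-base words of Ms4a4c also occurred in another gene of the cluster, against 8.75% for Ms4a4d, 8.08% for Ms4a6b, 7.77% for Ms4a4b, 6.28% for Ms4a6c, 5.39% for Ms4a6d, 0.11% for Ms4a7 and 0 for Ms4a4a. Salmon divides reads that fit several genes by estimate, so small values of Ms4a4b, Ms4a4c and Ms4a4d in particular carry an uncertainty that the spread between cultures does not show.

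Of the 8 genes, 7 passed the filter of a mean normalized count of at least 10, and 5 were lower in KE, 1 was higher and 1 did not pass the test. A gene was called at an adjusted p-value under 0.05 from limma on log2(normalized count + 1). By the same rule, 26.0% of the 15280 genes tested were lower and 25.3% higher in KE. All 3 KE values lay below all 3 NT values for the 5 lower genes, as for 29.9% of all tested genes, and all 3 KE values lay above all 3 NT values for the higher one, as for 30.1%. With calls this common, a call alone does not set the Ms4a genes apart, and the sizes of the changes are therefore given with each gene. The median log2FC of the 7 tested genes was -3.23, and that of all tested genes was 0.0018.

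**Figure D1:**
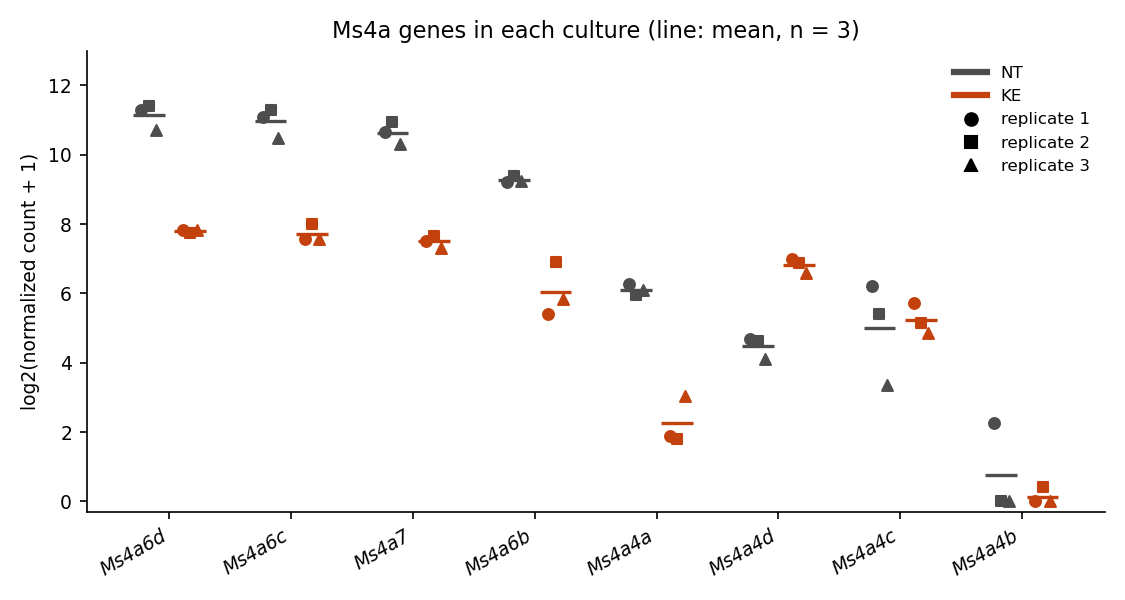
Log2(normalized count + 1) of the 8 Ms4a genes in each of 3 NT (grey) and 3 KE (orange) cultures, with a line at the mean of each group. The KE points lie below the NT points for Ms4a6d, Ms4a6c, Ms4a7, Ms4a6b and Ms4a4a, above them for Ms4a4d, and among them for Ms4a4c and Ms4a4b.

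Ms4a6d, Ms4a6c and Ms4a6b, the Ms4a6 group, are expressed mainly by myeloid cells. The normalized count of Ms4a6d was 226, 213 and 227 in KE replicates 1, 2 and 3 and 2498, 2700 and 1682 in NT replicates 1, 2 and 3. The groups were far apart, and the KE cultures lay closer together, with a coefficient of variation of 3.5% against 23.5% in NT. Ms4a6d fell by 3.33 on the log2 scale (SE 0.147, adjusted p = 2.72e-08), and the NT mean was 10.3 times the KE mean.

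Ms4a6c was measured at 189, 257 and 189 in KE and at 2196, 2494 and 1444 in NT. NT replicate 3 was the lowest NT culture for this gene, as it was for Ms4a6d and Ms4a7, but still lay far above each KE culture. The log2FC of Ms4a6c was -3.24 (SE 0.185, adjusted p = 1.57e-07). BE692007, an antisense gene, overlaps 3751 bases of Ms4a6c exons. It was itself listed at only 0.905, 0 and 2.72 in KE and at 4.95, 3.11 and 0 in NT. The libraries were made with a stranded kit, but the strand setting of the counting is not given in the sources used here.

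Ms4a6b had values of 41.1, 118 and 56.4 in KE and 588, 665 and 608 in NT. Among the KE cultures, replicate 2 stood at 2.43 times the mean of the other two, while the NT cultures had a coefficient of variation of 6.44%. Ms4a6b fell by 3.23 on the log2 scale (SE 0.294, adjusted p = 5.21e-06). For this gene NT replicate 3 was not low, at 0.97 of the mean of NT replicates 1 and 2, against 0.647 for Ms4a6d and 0.616 for Ms4a6c. The 3 Ms4a6 genes thus had log2FC values within the errors of each other, from -3.33 to -3.23.

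The 250 bases before the RefSeq start of Ms4a6b and of Ms4a6c hold an identical run of 48 bases, the longest between any pair of the promoters examined. RefSeq gives the windows, which matched GRCm39 exactly and once, at chr19:11495673-11495922 for Ms4a6b and chr19:11446482-11446731 for Ms4a6c, both on the plus strand. The start of a window's gene is RefSeq's here and below, within 29 bases of the start of a Gencode transcript for each window of the 8 genes. The gene spans given above run from the outermost Gencode transcript, so the windows of Ms4a6b, Ms4a4b and Ms4a4c and the second of Ms4a7 lie inside those spans, and those of Ms4a4d, Ms4a4a and Ms4a6c end up to 29 bases within them. The Ms4a6b and Ms4a6c windows are shown because both genes fell to a similar degree, and capitals mark the shared run.
Ms4a6b: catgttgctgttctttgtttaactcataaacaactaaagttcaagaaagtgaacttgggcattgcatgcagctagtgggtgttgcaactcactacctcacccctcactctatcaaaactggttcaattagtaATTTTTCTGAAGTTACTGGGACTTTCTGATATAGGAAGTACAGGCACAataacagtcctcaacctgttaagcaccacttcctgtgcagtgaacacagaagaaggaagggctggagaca
Ms4a6c: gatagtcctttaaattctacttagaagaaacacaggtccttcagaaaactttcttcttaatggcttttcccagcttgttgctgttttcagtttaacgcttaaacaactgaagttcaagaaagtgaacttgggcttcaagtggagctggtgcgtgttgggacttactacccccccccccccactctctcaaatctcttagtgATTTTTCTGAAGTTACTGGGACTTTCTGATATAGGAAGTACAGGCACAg
The run lies 118 to 71 bases before the RefSeq start of Ms4a6b and 49 to 2 bases before that of Ms4a6c. Promoter sequence of Ms4a6d was not analysed here.

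Ms4a7 was measured at 182, 202 and 159 in KE and at 1604, 1954 and 1281 in NT. The lowest NT culture was 6.33 times the highest KE culture. Ms4a7 fell by 3.13 on the log2 scale (SE 0.145, adjusted p = 3.53e-08), which places it at rank 217 from the bottom among 15280 genes.

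Ms4a4a, known from macrophages as a partner of the fungal receptor dectin-1, was a low gene. Its values were 2.70, 2.50 and 7.24 in KE and 76.4, 60.8 and 67.2 in NT. All KE cultures were near the level of a few reads, with replicate 3 the highest of them. The log2FC was -3.86 (SE 0.383, adjusted p = 1.02e-05), the lowest of the 8 and rank 63 from the bottom among all tested genes, although the pseudocount of 1 understates the change of so low a gene. With a pseudocount of 10 it was -2.48, and the order turned. The fall of Ms4a4a was then smaller than those of Ms4a6b (-3.05), Ms4a7 (-3.07), Ms4a6c (-3.19) and Ms4a6d (-3.28). The ratio of the means of Ms4a4a, NT over KE, was 16.4.

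Ms4a4d was the one gene of the 8 called higher. It was measured at 127, 116 and 95 in KE and at 24.8, 23.8 and 16.2 in NT. The lowest KE culture was 3.84 times the highest NT culture. Its log2FC was 2.35 (SE 0.232, 95% CI 1.83 to 2.86, adjusted p = 1.02e-05), rank 136 from the top among all tested genes, and the KE mean was 5.23 times the NT mean. Its neighbours on the chromosome, Ms4a6b and Ms4a6d, both fell.

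Ms4a4c did not pass the test. Its values were 51.8, 34.6 and 27.9 in KE and 72.7, 41.3 and 9.34 in NT. The groups overlapped, and the NT cultures ranged widely, with a coefficient of variation of 77%. The log2FC was 0.25 (adjusted p = 0.743), and its 95% CI from -1.03 to 1.53 leaves room for a fall or a rise. The means of the normalized counts ran the other way, at 38.1 in KE and 41.1 in NT. Without NT replicate 3 the log2FC was -0.56 (adjusted p = 0.188), so its sign rests on that culture and on the use of the log scale. With all 6 cultures, the interval does not reach the values of Ms4a6b, Ms4a6c, Ms4a6d or Ms4a7.

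Ms4a4b, known mainly from T cells, was below the filter. It was listed at 0, 0.329 and 0 in KE and at 3.75, 0 and 0 in NT, which is at most a few reads in any culture, and no change can be read from these values. The T and NK cell markers Cd3d, Cd3e and Cd3g were listed at 0 in every culture. Of the 12 markers of T and NK cells, 7 were at 0 throughout and only Lck passed the filter, with a log2FC of 1.64 (adjusted p = 0.000369).

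The windows before the RefSeq starts of Ms4a4b, Ms4a4c and Ms4a4d were compared because Ms4a4d rose while Ms4a4c was not called and Ms4a4b was not tested. They lie on the plus strand of GRCm39 at chr19:11420672-11420921 for Ms4a4b, chr19:11384775-11385024 for Ms4a4c and chr19:11513908-11514157 for Ms4a4d. Capitals mark a run of 20 bases shared by Ms4a4b and Ms4a4c.
Ms4a4b: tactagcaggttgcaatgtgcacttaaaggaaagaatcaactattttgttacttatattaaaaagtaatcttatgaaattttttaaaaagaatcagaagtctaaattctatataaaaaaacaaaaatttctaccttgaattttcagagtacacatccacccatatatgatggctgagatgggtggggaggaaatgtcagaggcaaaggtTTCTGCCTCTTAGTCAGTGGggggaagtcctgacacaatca
Ms4a4c: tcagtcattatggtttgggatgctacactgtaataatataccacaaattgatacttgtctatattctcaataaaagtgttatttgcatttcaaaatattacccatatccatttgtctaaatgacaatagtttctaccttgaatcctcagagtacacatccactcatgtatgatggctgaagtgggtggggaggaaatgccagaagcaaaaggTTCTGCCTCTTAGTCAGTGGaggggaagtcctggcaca
Ms4a4d: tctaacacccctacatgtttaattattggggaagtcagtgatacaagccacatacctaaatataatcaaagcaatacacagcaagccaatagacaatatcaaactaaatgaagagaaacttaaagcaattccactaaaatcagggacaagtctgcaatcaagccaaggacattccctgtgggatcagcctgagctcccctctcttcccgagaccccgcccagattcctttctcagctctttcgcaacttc
No run longer than 9 bases was shared between Ms4a4d and any of the other members with a window, although its coding sequence is 87.9% identical to that of Ms4a4c. The windows were searched on both strands for GAGGAA, a form of the site bound by the myeloid factor PU.1. They were also searched for the interferon element GAAANNGAAA, the gamma-activated element TTCNNNGAA, the AP-1 site TGANTCA and the TATA box TATAAA. None of these overlapped another where found in the 8 genes. GAGGAA occurred 61 to 56 bases before the RefSeq start of Ms4a4c and 64 to 59 bases before that of Ms4a4b, and is held by 23.3% of 32851 mouse promoter windows of the same length. Ms4a4b also had TATAAA (12.4% of windows) and the second of the pair of windows of Ms4a7 had an AP-1 site (6.75%). None of the 5 motifs was in the windows of Ms4a4d, Ms4a4a, Ms4a6b or Ms4a6c. The shorter core GGAA of PU.1 sites was not searched for, and the run shared by Ms4a6b and Ms4a6c contains it. The interferon and gamma-activated elements, in 2.98% and 7.02% of all windows, were in no member window. A match is a description of letters, and no match says only that these letters are not in the window.

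Along the chromosome, Ms4a14 and 7 of the 8 genes were the Ms4a genes with a mean of at least 10. Of the 13 further Ms4a genes, Ms4a14, next to Ms4a7, was the one that passed the filter. It was measured at 15.4, 17.5 and 19.9 in KE and at 188, 158 and 116 in NT, and its log2FC was -3.04 (SE 0.23, adjusted p = 1.28e-06). Ms4a2 and 9 others were at 0 in all 6 cultures. Ms4a1 was above 0 only in NT replicate 2, at 3.11, and Ms4a8a only in NT replicates 1 and 3, at 0.987 and 0.954. Elsewhere in the cluster the long noncoding RNA AW112010 was tested and not called (log2FC -0.13, adjusted p = 0.657). The related genes Tmem176a and Tmem176b, which lie outside the cluster, had log2FC values of 0.24 (adjusted p = 0.00765) and 0.07 (adjusted p = 0.401).

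**Figure D2:**
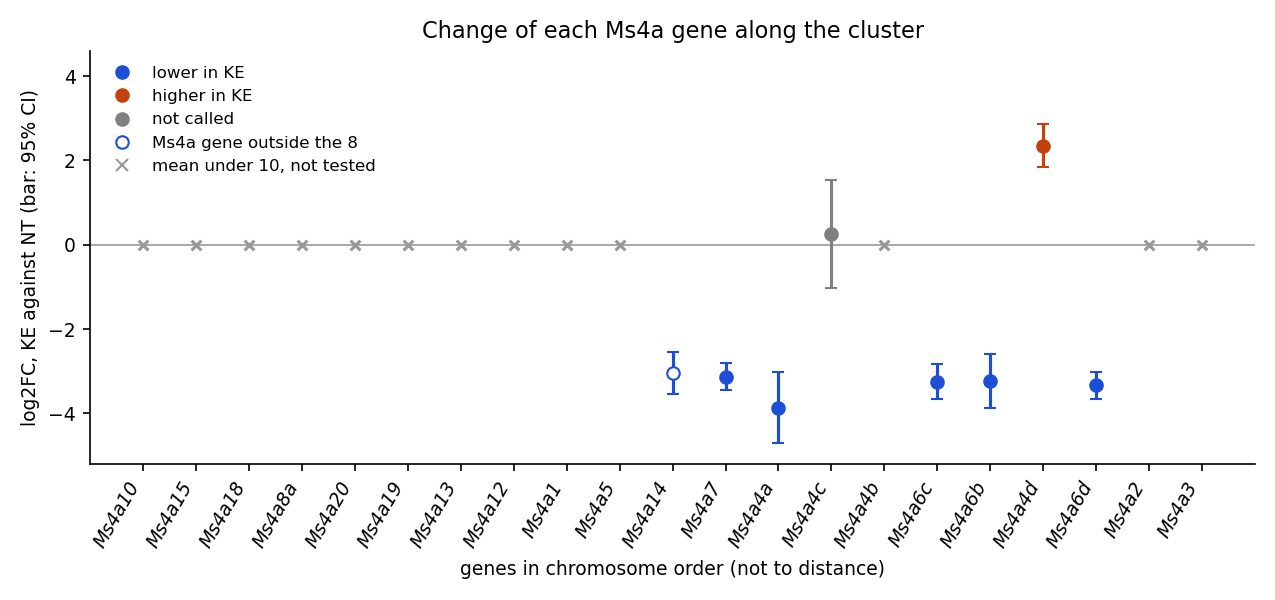
Log2FC of KE against NT with its 95% CI for the Ms4a genes of the cluster, in chromosome order and without regard to distance. Filled points are among the 8, the open point is Ms4a14, and crosses are genes with a mean under 10. Ms4a4d at 2.35 stands between Ms4a6b at -3.23 and Ms4a6d at -3.33.

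Beyond the ends of the cluster, the 10 protein-coding genes on each side went both ways. Of these 20, 8 were tested, 3 were lower, 2 higher and 3 not called, with a median log2FC of -0.07. The splicing factor gene Prpf19 had a log2FC of -0.26 (adjusted p = 0.00244), Tmem109 of -0.46 (adjusted p = 0.00206) and Tmem132a of -0.13 (adjusted p = 0.205). Slc15a3, a peptide and histidine transporter of lysosomes in myeloid cells, was the lowest, at 244 ± 51.0 in KE and 1916 ± 479 in NT (SD, n = 3, log2FC -2.95, adjusted p = 3.31e-07). The 2 higher genes were the syntaxin gene Stx3 (log2FC 1.03, adjusted p = 0.000144) and Vps37c (log2FC 0.43, adjusted p = 0.00304).

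The levels of the 8 genes were compared per kb of merged exons. In NT, Ms4a6d was the most abundant at 1322 ± 311 normalized counts per kb, followed by Ms4a6c at 417 ± 111 and Ms4a7 at 362 ± 75.7. The ranges of the last pair overlapped, and their order turned round when the median coding transcript length was used. Ms4a6b (138 ± 8.85) and Ms4a4a (47.8 ± 5.51) came next, each apart from its neighbours, then Ms4a4c (22.2 ± 17.1) and Ms4a4d (5.97 ± 1.29), whose ranges overlapped, and Ms4a4b at 0.13 ± 0.224. In KE the first 3 places were held by the same genes, Ms4a6d at 128 ± 4.48, Ms4a6c at 43.2 ± 8.05 and Ms4a7 at 40.7 ± 4.85 per kb. Ms4a4d came next at 31.2 ± 4.53, ahead of Ms4a4c at 20.6 ± 6.65 and Ms4a6b at 16 ± 9.09, but the ranges of Ms4a4d and Ms4a4c overlapped, as did those of Ms4a4c and Ms4a6b. Ms4a4a at 2.91 ± 1.88 and Ms4a4b at 0.0114 ± 0.0197 were the lowest.

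The make-up of the summed Ms4a level per kb shifted accordingly. Ms4a4d took 0.258% ± 0.0174 of it in NT and 11% ± 1.25 in KE (SD, n = 3), and Ms4a4c 0.896% ± 0.65 in NT and 7.26% ± 2.26 in KE. The share of Ms4a6d was 57.0% ± 1.24 in NT and 45.5% ± 4.30 in KE. Ms4a7 held 15.7% ± 1.04 in NT and 14.4% ± 0.818 in KE, so its share moved by little more than 1 SD. A share also rises when the other genes fall, and the counts of Ms4a4c were not called different. The shares depend on the length used. Per kb of the median coding transcript, Ms4a4d took 0.131% in NT and 5.95% in KE, and Ms4a4c 0.513% and 4.42%.

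**Figure D3:**
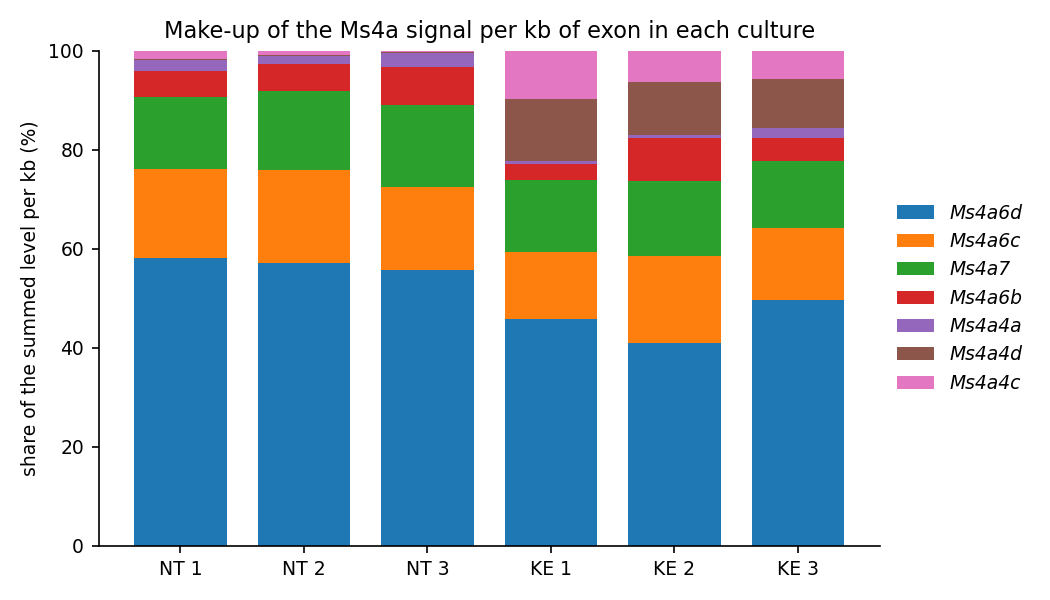
Share in percent of each Ms4a gene in the summed level per kb of merged exons, for each NT and KE culture, stacked to 100%. Ms4a4d and Ms4a4c form 15.6% to 22.2% of the column in the KE cultures and 0.546% to 1.86% in the NT cultures, and Ms4a4b is too low to be drawn.

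The members that fell were set beside the RNA of the cells they are known from, since the 16 markers of microglia and macrophages had a median log2FC of -3.34. Per 1000 counts summed over these markers, Ms4a7 stood at 26.2, 20.9 and 22.5 in KE and at 21.1, 25.4 and 20.9 in NT. The groups overlapped, and the ratio of the means was 1.03. On the same scale Ms4a6d was at 32.5, 22 and 32.2 in KE and at 32.9, 35.1 and 27.5 in NT. Ms4a6c gave 27.1, 26.6 and 26.8 in KE and 28.9, 32.4 and 23.6 in NT. The KE values of both genes overlapped the NT values, with ratios of the means of 0.908 and 0.948. For Ms4a6b the ratio was 0.994 and for Ms4a4a 0.578, again with overlap between the groups. Ms4a7, Ms4a6b, Ms4a6c and Ms4a6d and this marker sum therefore differed between KE and NT by similar factors. NT replicate 3, the lowest NT culture for Ms4a7, Ms4a6c and Ms4a6d, was also the lowest for 15 of the 16 markers. The part of the marker cells in the fall of the Ms4a genes was not tested.

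Ms4a4d and Ms4a4c did not follow the markers. Per 1000 marker counts, Ms4a4d was at 18.3, 12 and 13.5 in KE and at 0.326, 0.309 and 0.265 in NT, so that its KE mean was 48.7 times its NT mean. Ms4a4c was at 7.45, 3.6 and 3.95 in KE and at 0.956, 0.537 and 0.152 in NT, and here the ratio was 9.1. For both genes each KE culture lay above each NT culture, whereas the deposited counts of Ms4a4c overlapped. The marker sum itself was lower in KE, so a gene with unchanged counts rises on this scale. The ratio of Ms4a4c, which was not called, therefore shows the fall of the markers and no change of its own. Against the summed astrocyte markers, Ms4a4d was still higher in KE, at 0.847, 0.762 and 0.627 per 1000 counts against 0.226, 0.217 and 0.142 in NT. On that scale Ms4a4c overlapped between the groups, with a ratio of the means of 0.673. Which cells of the culture held these transcripts was not measured.

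**Figure D4:**
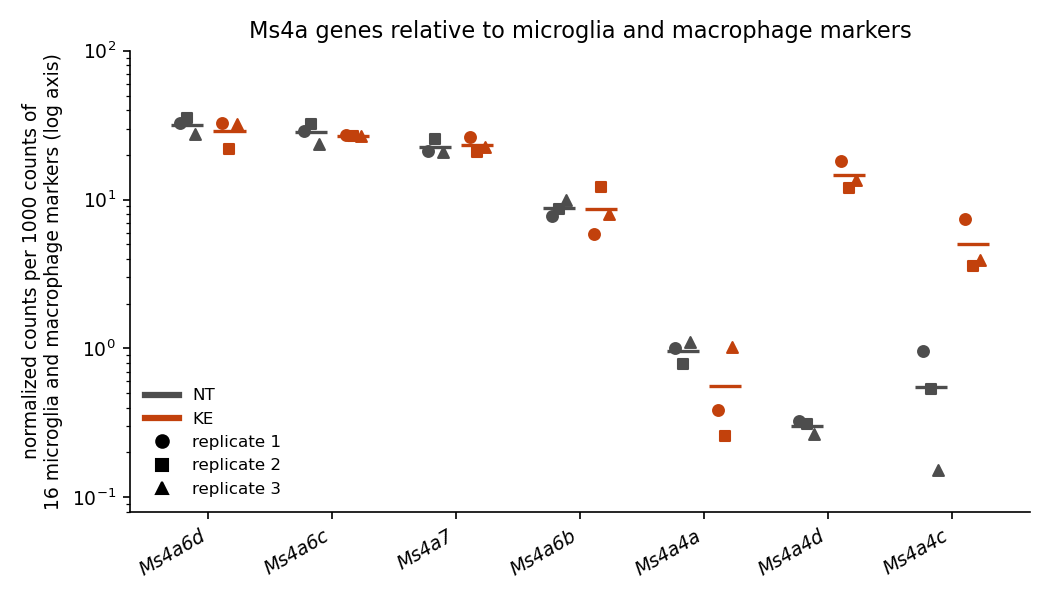
Normalized counts of 7 Ms4a genes per 1000 counts summed over 16 microglia and macrophage markers, on a log axis, in each NT (grey) and KE (orange) culture with the mean as a line. KE and NT points overlap for Ms4a6d, Ms4a6c, Ms4a7, Ms4a6b and Ms4a4a, and the KE points lie above for Ms4a4d (ratio of means 48.7) and Ms4a4c (9.1). The marker sum was lower in KE, so unchanged counts rise on this scale.

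The result depends on the marker set. The 8 markers of border-associated macrophages summed to 238 to 389 in KE and 5945 to 6140 in NT. Of these, 4 of the 5 tested were lower, among them the scavenger receptor gene Stab1 (log2FC -4.77) and the mannose receptor gene Mrc1 (log2FC -4.66), whereas Cbr2 had a log2FC of -0.75 (adjusted p = 0.0229) and F13a1, which was not called, of -0.18 (adjusted p = 0.542). Stab1 made up most of the sum, at 193 ± 73.9 in KE and 5050 ± 69.5 in NT. Per 1000 counts of these markers, Ms4a7 was at 767, 520 and 619 in KE and at 261, 329 and 209 in NT. On this scale Ms4a7 was higher in each KE culture than in each NT culture, with a ratio of the means of 2.39. The ratio was 2.16 for Ms4a6c, 2.27 for Ms4a6b and 2.1 for Ms4a6d, also with no overlap, and 1.37 for Ms4a4a, with overlap. For Ms4a4d the ratio was 113 and for Ms4a4c 20.4, both with no overlap. This marker sum was also lower in KE, so unchanged counts rise on this scale too.

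Markers of other cell types were summed as well. Among 7 mast cell and basophil markers, Fcer1a, Ms4a2, Mcpt4 and Tpsb2 were at 0 in all cultures. Kit, which other cell types also express, was at 179 ± 15.6 in KE and 327 ± 11.8 in NT (log2FC -0.87, adjusted p = 7.94e-05). The histidine decarboxylase gene Hdc was at 29.6 ± 21.9 in KE and 2.71 ± 2.62 in NT (log2FC 2.99, adjusted p = 0.00304). The 7 B cell markers were low, with sums of 54.3 to 80.4 in KE and 69.9 to 110 in NT, although Cd22 (log2FC -2.93) and Pax5 (log2FC 4.04) passed the test in opposite directions. Endothelial markers summed to 237 to 302 in KE and 337 to 496 in NT, and 2 of 3 tested were lower. Of 7 tested fibroblast and mural cell markers, 3 were higher and 2 lower, and of 10 astrocyte markers, 6 were higher and 2 lower.

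Of 8 genes for proteins known to work with or near MS4A proteins, 6 were tested and all 6 were lower in KE, with a median log2FC of -3.42. Of the other two, Fcer1a was at 0 throughout and Tnfrsf18 was below the filter, at 12.1 ± 4.43 in KE and 6.19 ± 1.90 in NT. Fcer1g, the shared gamma chain of Fc receptors, was at 279 ± 65.8 in KE and 2843 ± 716 in NT (log2FC -3.33, adjusted p = 1.6e-07). Tyrobp, the adaptor of TREM2, had a log2FC of -3.51, the kinase gene Syk of -2.47 and Clec7a, which encodes dectin-1, of -3.61. These genes are expressed in myeloid cells, and the sum of the microglia and macrophage markers was lower in the same cultures. Its part in the lower values was not tested.

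The myeloid transcription factors were less uniform. Of 10 tested, 7 were lower, 1 was higher and 2 were not called, with a median log2FC of -0.74. Among the 4 most abundant, Maf was lower (log2FC -0.99, adjusted p = 4.61e-06), Runx1 was lower (log2FC -0.28, adjusted p = 0.018), Cebpb was higher (log2FC 0.60, adjusted p = 8.24e-05) and Sall1 had a log2FC of 0.03 (adjusted p = 0.667). Sall1 marks microglia in the adult brain, but which cells of these cultures held it was not measured. Its level was 2801 ± 99.8 in KE and 2739 ± 102 in NT, whereas the microglia and macrophage markers had a median log2FC of -3.34. The falls with a log2FC below -2 were those of less abundant factors, Spi1 (log2FC -3.69, adjusted p = 9.9e-07), which encodes PU.1, Irf8 (log2FC -2.79, adjusted p = 5.24e-08) and Irf5 (log2FC -2.42, adjusted p = 5.6e-06). Spi1 was at 62.2, 95.1 and 40.5 in KE and at 832, 1037 and 620 in NT. All 15 interferon response genes and their transcription factors were higher, as Ms4a4d was, with a median log2FC of 3.42. Among the most abundant were Ifit3 (log2FC 4.04), Oasl2 (2.35) and Ifit1 (3.47). Per 1000 counts summed over the 15 genes of this list, Ms4a4d was lower in KE than in NT. It was at 0.533, 0.477 and 0.392 in KE and at 0.765, 0.661 and 0.674 in NT. On this scale the ratio of the means, KE over NT, was 0.667 for Ms4a4d and 0.125 for Ms4a4c, both with no overlap. The sum of the interferon list was higher in KE, so a gene with unchanged counts falls on this scale.

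**Figure D5:**
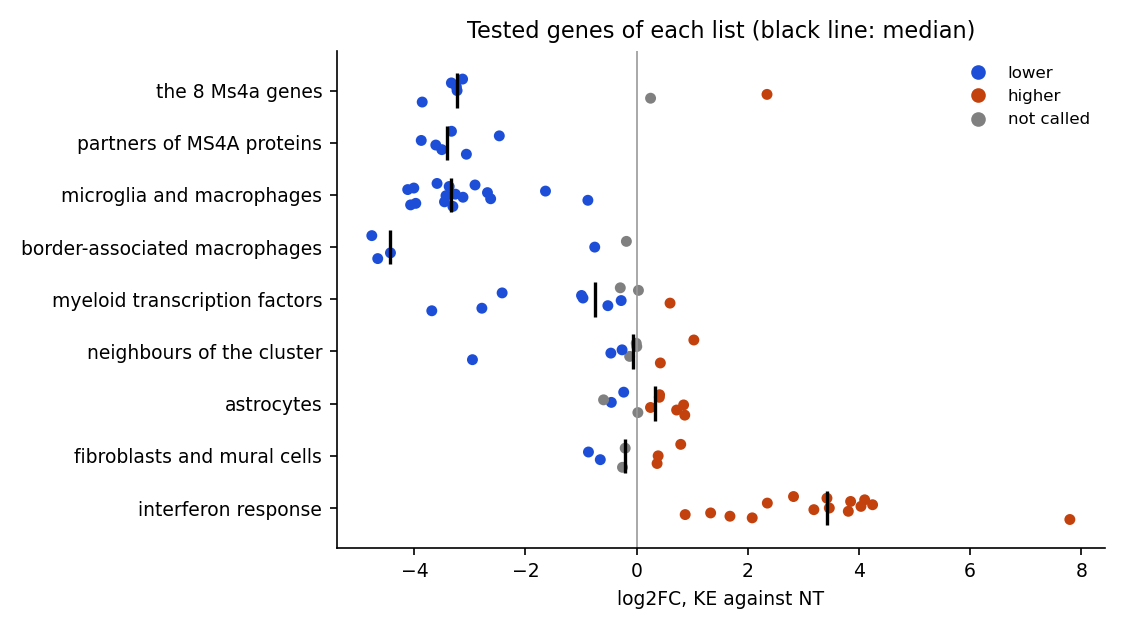
Log2FC of KE against NT for the tested genes of 9 lists, one point per gene, blue where lower, orange where higher and grey where not called, with the median as a black line. The Ms4a genes (median -3.23), partners of MS4A proteins (-3.42) and microglia and macrophage markers (-3.34) lie together on the left, with Ms4a4d and Ms4a4c apart from them, and interferon response genes (3.42) lie on the right.

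The genes most like Ms4a6d and Ms4a4d were sought among 12068 genes with a mean of at least 100. The measure was Pearson's r of log2(normalized count + 1) over the 6 cultures, which share their division into 2 groups, so that high values are common. For Ms4a6d, 218 genes had an r over 0.99, led by Kctd12, Lcp1 and Lpxn at 0.9992, Gpr65 at 0.9991 and Apbb1ip at 0.999. Lcp1, which encodes the actin bundling protein L-plastin of blood cells, was at 360 ± 28.7 in KE and 4817 ± 931 in NT. For Ms4a4d, 149 genes had an r over 0.99, led by Washc3 at 0.9977, Irf9 at 0.9976, Ifitm3 at 0.9972, Rabgef1 at 0.9967 and Lrrc51 at 0.9965. Irf9 is a subunit of the factor activated by type I interferon, and Ifitm3 encodes an antiviral membrane protein that interferon induces. The log2FC was 0.31 for Washc3, 0.87 for Irf9, 1.35 for Ifitm3, 0.43 for Rabgef1 and 1.38 for Lrrc51, each smaller than the 2.35 of Ms4a4d. With 149 genes at an r over 0.99, the order of the first few does not single out a group of genes.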

How the data were processed

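RNA-seq of 6 cultures, 3 KE and 3 NT, was analysed, with groups and replicate numbers from the sample labels. The authors trimmed reads with Trim Galore, aligned them with STAR, counted with Salmon and normalized with DESeq2. The deposited signal per gene and culture is a normalized count. Values near 1 read differed slightly between genes of the same culture, so a size factor per culture alone may not describe the scaling. The methods describe this pipeline for mouse hippocampus and human spheroids, and it was taken to hold for the astrocytes. They give GRCm39 for mouse, whereas the submitters' processing notes list GRCh38, but the gene identifiers are those of mouse. Batches mentioned in the methods are not named, so none was modelled. Normalization removes depth and rests on most genes not changing, whereas 7844 of the 15280 tested genes were called, 3974 lower and 3870 higher. Whole reads were not recovered, since 72.7% to 75.8% of values under 30 were whole multiples of the worth of 1 read, to within 0.1, and no count test was run.

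The test was limma 3.58.1 (R 4.3.3, two-sided, with a variance trend and group as the one factor) on log2(normalized count + 1) of the 15280 genes with a mean of at least 10. Benjamini-Hochberg adjustment ran over all of these. The fit was tested on simulated data. Positions and transcripts came from Gencode vM39 on GRCm39 and promoters from RefSeq. The Ms4a genes, gene lists and markers were chosen with earlier results of these data known. The genes named are the 8 Ms4a genes, other Ms4a genes above the filter, at most 4 genes of each list by mean, Braf, and the 5 genes most like Ms4a6d and Ms4a4d. Genes at 0, Cd3d, Cd3e, Cd3g and markers named for being at 0 among them, Ms4a1, Ms4a8a, AW112010, BE692007, Tnfrsf18, Spi1, Irf8, Irf5, Stx3, Vps37c and F13a1 were named after their values were seen. Alternatives were other pseudocounts (0.5 and 10), filters, scalings, limma without the trend, a replicate block and leaving out each culture. Values of some single genes are left out.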

Additional observations from a re-analysis of the deposited data

How the results depend on the processing

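Of 96 recomputed log2FC values of the Ms4a genes, 95 kept their direction and side of the threshold. The exception was the log2FC of Ms4a4c, which was -0.56 without NT replicate 3 (adjusted p = 0.188). Over all its alternatives the adjusted p ran from 0.188 to 0.991. For the change of sign, the cause was not tested. With 1 culture left out, log2FC ranged from -3.54 to -3.20 for Ms4a6d, from -3.48 to -3.08 for Ms4a6c, from -3.29 to -2.98 for Ms4a7, from -3.66 to -2.91 for Ms4a6b, from -4.26 to -3.64 for Ms4a4a, from 2.16 to 2.46 for Ms4a4d and from -0.56 to 0.86 for Ms4a4c. With a pseudocount of 10, the log2FC of Ms4a4a was -2.48. All 114 recomputed counts were within 1.5 times the main count, with 7 to 9 myeloid factors and 5 to 6 neighbours called. The genes called numbered 6776 to 8046 over all settings, against 7844. Of the 8 Ms4a genes 5 were lower and 1 higher under each setting, except that 4 were lower with a mean of at least 50, a filter that Ms4a4a and Ms4a4c do not pass. Without a filter, Ms4a4b had a log2FC of -0.61 (adjusted p = 0.498).

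The cultures share replicate numbers, but deviations of same-numbered cultures were hardly correlated (r = 0.0589, 0.0664 and 0.0651 across genes), so the numbers were not taken as a pairing. Each KE culture did correlate best with its own number (other pairs -0.0499 to -0.0105), a hint from the data and not the design. With the replicate block, 8046 genes were called, and 5 Ms4a genes were lower and 1 higher. The values of Ms4a4b and the KE values of Ms4a4a stood near the level of a few reads.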
